A study of Rattus with 4 samples.

Results

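Rbm25 is the rat gene of RBM25, the protein that was precipitated here, so the peaks described below lie at the gene whose product was pulled down, on its sense or its antisense strand. They are all peaks that the deposited annotation assigns to Rbm25: 14 of 2696 peaks in the first RBM25 immunoprecipitate (IP replicate 1) and 18 of 8108 in the second (IP replicate 2). The gene was selected on these peak calls, by having peaks in both lists, so its peak numbers, tags and recurrence are a description and carry no test. H9C2 cells, a myoblast line from embryonic rat heart, were irradiated with 400 mJ/cm2 of ultraviolet light, RNA was trimmed with micrococcal nuclease, and stranded libraries were read as pairs of 150 nt. The series has 4 samples of this one line with no treatment named apart from the assay, 2 labelled IP and 2 labelled input; the inputs were not analysed here. The design text speaks of H9C2 cells with excess RBM25 for an RNA-seq arm, and the labels do not say whether the cells of these IPs carried it. Whether the replicates are separate cultures is not stated.

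RBM25 is a nuclear speckle protein with an RNA recognition motif, a stretch rich in arginine and acidic residues, and a C-terminal PWI domain. It works with the U1 snRNP, the particle that recognises 5' splice sites, and with the LUC7-like protein LUC7L3, and it shifts splice site choice in the apoptosis gene BCL2L1. Many splicing factors bind their own transcripts and adjust their own level through alternative splicing, which is why peaks in Rbm25 are of interest; whether these peaks do so was not tested.

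A peak is a run of 50-nt bins on one strand, and its tags are the authors' signal, a mean per bin where a peak is longer than 1 bin. Tags were not scaled for depth, and how deeply each library was sequenced is unknown. The lowest tags were 19 in the replicate 1 list and 20 in the replicate 2 list, with medians of 24 and 26. In a look-up of cell type markers, 2 of 14 myoblast and muscle genes had a peak in both lists, Tpm1 and Tnnt2, and Vim and Mef2c had peaks in replicate 2; Des, Myog, Myod1, Actc1, Gata4 and Nkx2-5 were among the 10 with none. None of 6 genes that mark leukocyte, endothelial, epithelial or liver cells had a peak. The share of all protein-coding symbols with a peak was 3.68% for replicate 1, 7.25% for replicate 2 and 3.31% for both lists, so a count of 0 among 6 says little about those cells. RNA level was not measured in these lists.

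All Rbm25 peaks lay on chromosome 6, between 103296700 and 103311300 (mRatBN7.2, as deposited), a span of 14600 nt. The sense strand is plus, so positions rise from 5' to 3' along the transcript. Merging peaks that overlap or touch, over both lists and strands, gave 9 sites that cover 950 nt. Gaps between neighbouring sites ran from 100 to 3800 nt. No peak of another gene lay within 1000000 nt in either list: the nearest was in Jdp2 in replicate 1, at 1.99 Mb, and in Npc2 in replicate 2, at 1.09 Mb. The genes next to Rbm25 in the name table, among them Zfyve1, Dcaf4 and Numb, had 0 peaks.

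**Figure D1:**
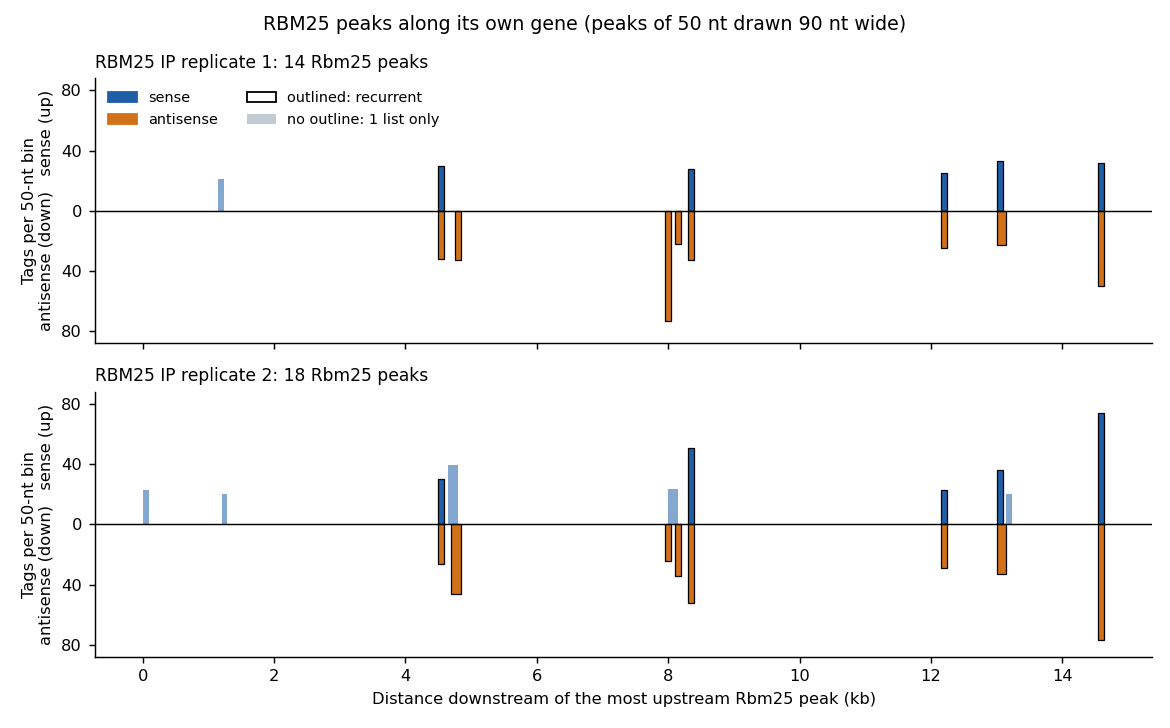
Tags per 50-nt bin of each Rbm25 peak (vertical axis, sense up and antisense down) against the distance in kb from the most upstream peak, with replicate 1 above and replicate 2 below. Outlined bars overlap a peak of the other list on the same strand: all 8 antisense peaks of each list are outlined, against 5 of 6 and 5 of 10 sense peaks, and the tallest bars are 73 tags in replicate 1 and 77 in replicate 2.

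The sites fell into 3 kinds. At 5 sites, peaks were called on both strands in both replicates, and each of these sites held a sense peak that ran across an exon-intron boundary. At 2 sites, antisense peaks were called in both replicates, and the sense peak, in replicate 2 alone, was wholly coding. Bins there with antisense peaks alone have no class in the annotation, so whether they hold a boundary is not known. At the 2 most upstream sites, which also held boundary peaks, there were sense peaks alone, and no bin of theirs was called in both lists.

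Of these 5 boundary sites, the most downstream one had the most tags in replicate 2. It is a 1-bin site at 103311250 to 103311300, with 9 nt of coding sequence and 41 nt of intron. On the sense strand it had 32 tags in replicate 1 and 74 in the other list. On the antisense strand it had 50 tags and 77 tags. By tags, the antisense peak ranked 140 of 2696 in replicate 1 and 161 of 8108 in replicate 2. The sense peak ranked 494 and 188. Both strands were thus above the median of their list in both replicates.

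The bin at 103305000 to 103305050 held 33 nt of coding sequence and 17 nt of intron. Sense tags there were 28 in replicate 1 and 51 in replicate 2. Antisense tags were 33 and 52. The bin at 103301200 to 103301250, with 9 nt of coding sequence and 41 nt of intron like the most downstream one, had 30 sense tags in each replicate. Its antisense tags were 32 and 26. At 103308850 to 103308900, with 21 nt of coding sequence and 29 nt of intron, the sense peak had 25 and 23 tags and the antisense peak 25 and 29. On the sense strand it was the lowest of the 5 sites called on both strands in both replicates. Its sense peak in replicate 2 stood below the median of that list, with fewer tags in 27.2% of the peaks.

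The remaining site of these 5 began at 103309700 and was wider. Its antisense peak had the same 3 bins in both lists, 103309700 to 103309850, with 23 tags per bin in replicate 1 and 32.7 in replicate 2. The sense peak covered 1 bin in replicate 1, with 33 tags, and 2 bins in replicate 2, with 36 tags per bin. A further sense peak of replicate 2, at 103309850 to 103309900 with 20 tags, touched the end of the antisense peak; it held 30 nt of coding sequence and 20 nt of intron, and it was not called in replicate 1.

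The nested sense peaks at that site show on which side the intron lies. The 1-bin peak held 29 nt of intron and 21 nt of coding sequence, and the 2-bin peak from the same start held the same 29 nt of intron and 71 nt of coding sequence. If the bin holds a single boundary, the intron is upstream and coding sequence follows, which is the order at a 3' splice site. The same order holds at 103297850, where a replicate 1 bin with 20 nt of intron and 30 nt of coding sequence is followed, with no gap, by a replicate 2 bin that is wholly coding. At the other boundary bins the order of exon and intron could not be read from the deposited fractions.

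**Figure D2:**
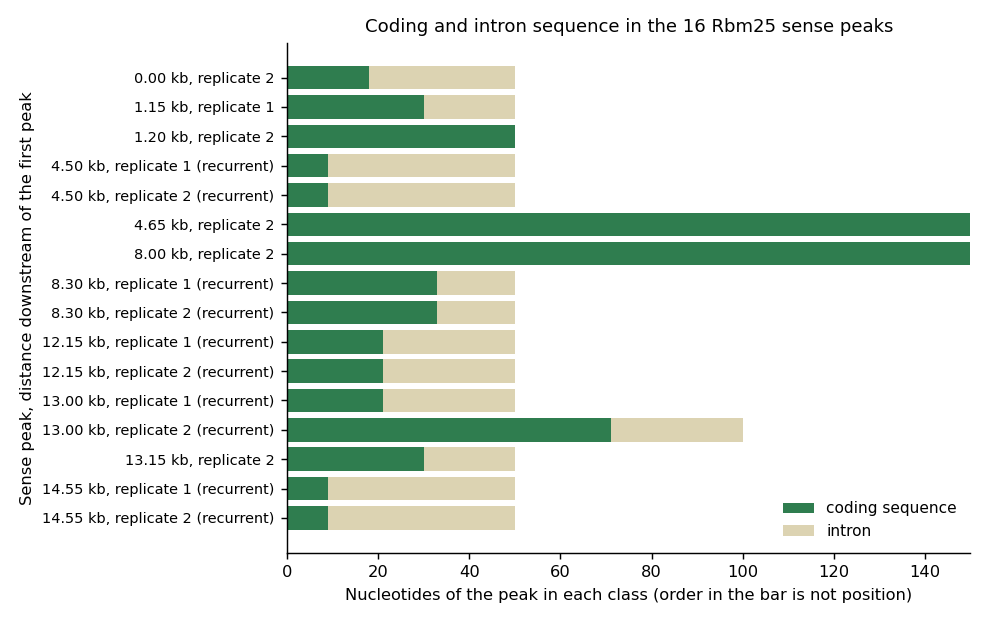
Nucleotides of coding sequence (green) and intron (sand) in each of the 16 Rbm25 sense peaks, 6 of replicate 1 and 10 of replicate 2, listed from the most upstream peak down by distance in kb from that peak. All 5 recurrent sense peaks of each list hold both classes, and the 3 wholly coding peaks are from replicate 2.

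Of the 2 sites with antisense peaks and a wholly coding sense peak, the upstream one reached from 103301350 to 103301550. Replicate 1 had an antisense peak of 2 bins there, with 32.5 tags per bin, and replicate 2 an antisense peak of 3 bins with 46. The sense peak of 3 bins in replicate 2, wholly coding, had 39.3 tags per bin and no counterpart in replicate 1. So the bins from 103301450 to 103301550 were called in both replicates on the antisense strand. The bins from 103301350 to 103301500 were called on the sense strand, in replicate 2 alone.

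The downstream site of this kind, 103304650 to 103304850, held the tallest Rbm25 peak of replicate 1. That peak, antisense at 103304650 to 103304700, had 73 tags and ranked 53 of 2696; its p-value is listed as 0, as for 29 peaks of that list. The replicate 2 peak over it spanned 2 bins with 24.5 tags per bin, 49 tags in all, so this bin had fewer tags in replicate 2 than in replicate 1. A further antisense peak of the site, at 103304800 to 103304850, went from 22 tags in replicate 1 to 34 in the other list. The sense peak of replicate 2 at 103304700 to 103304850 was wholly coding, with 23.3 tags per bin. No sense peak covered the 73-tag bin in either list, so its class on the sense strand is not given by the peak annotation.

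The 2 upstream sites were weak and on the sense strand. At 103296700 to 103296750, replicate 2 had a peak of 23 tags, with 18 nt of coding sequence and 32 nt of intron. At the next site, replicate 1 had 21 tags at 103297850 to 103297900 and replicate 2 had 20 tags in the adjoining bin, 103297900 to 103297950. The value of 20 is the lowest that the replicate 2 list contains, and the value of 21 is close to the lowest of replicate 1.

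No Rbm25 sense peak held UTR sequence and none was wholly intronic. The 6 sense peaks of replicate 1 held 123 nt of coding sequence and 177 nt of intron, and the 10 of replicate 2 held 541 nt and 209 nt. All 6 sense peaks of replicate 1 held both exon and intron sequence (100%, 95% Wilson interval 61.0 to 100), where 67.8% of all sense peaks of that list did. In replicate 2, 7 of 10 did (70.0%, 39.7 to 89.2), beside 71.2% of that whole list. Wholly coding peaks were 0 of 6 and 3 of 10, beside 16.8% and 17.0% of all sense peaks. With 6 and 10 sense peaks of a single gene, these intervals are wide and are no test against the lists. All intervals cover counting error only.

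Most Rbm25 peaks recurred: 13 of 14 in replicate 1 shared at least 1 bin with a same-strand peak of replicate 2 (92.9%, 68.5 to 98.7), beside 61.0% of all replicate 1 peaks. Seen from replicate 2, 13 of 18 peaks recurred (72.2%, 49.1 to 87.5), beside 20.3%. Peaks on both strands of a bin count separately here, so these intervals may be too narrow. The gene was selected by having peaks in both lists, so the intervals are no test against the whole lists. Start, end and strand were identical for 10 of the 14. The share of identical matches over all replicate 1 peaks was not computed, and 2560 of those 2696 peaks covered 1 bin. With the replicate 2 list shortened by p-value to about the length of the replicate 1 list, 5 of the 14 Rbm25 peaks recurred, beside 31.5% of all replicate 1 peaks. The peaks of replicate 2 that made up these 5 were both strands at 103305000 and at 103311250 and the antisense peak at 103304800.

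Recurrence at Rbm25 was complete on the antisense strand. All 8 antisense peaks of replicate 1 recurred, beside 60.0% of all antisense peaks of that list, and all 8 of replicate 2 did, beside 20.9%. On the sense strand 5 of 6 recurred, beside 64.6%, and 5 of 10, beside 19.9%. Every Rbm25 peak found in 1 list alone, 1 in replicate 1 and 5 in replicate 2, was therefore a sense peak. Counted in bins, 11 of 13 antisense bins were called in both lists and 5 of 16 sense bins. These bin shares were not computed over the whole lists, so whether this strand difference is usual is not known. Complete recurrence of antisense peaks was shared by other genes: of 47 genes with at least 5 antisense peaks in replicate 1, 12 had all of them recur. Equal numbers of antisense peaks in both lists were rarer and held for 5 of the 47.

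Antisense peaks made up 8 of 14 Rbm25 peaks in replicate 1 (57.1%, 32.6 to 78.6) and 8 of 18 in replicate 2 (44.4%, 24.6 to 66.3). Over all peaks assigned to genes the antisense share was 53.7% and 50.7%, so Rbm25 lay near the lists in both replicates. By tags summed over bins, the antisense strand held 68.6% of the Rbm25 signal in replicate 1 and 50.1% in replicate 2. The 73-tag bin belongs to the larger of these shares. The strand from which the antisense tags came was not tested.

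The strands mirrored each other in position. In replicate 1, 10 of 14 Rbm25 peaks shared a bin with a peak of the opposite strand, beside 45.9% of all peaks assigned to genes, and in replicate 2 15 of 18 did, beside 70.3%. Among sense peaks across a boundary, 5 of 6 in replicate 1 had an antisense partner, beside 58.5% of all such peaks, and 5 of 7 in replicate 2, beside 77.3%. Of the 3 wholly coding sense peaks of replicate 2, 2 had a partner, beside 65.7%; replicate 1 had none at Rbm25, and 31.8% of wholly coding peaks in that list had a partner. In bins, 5 of the 12 called at Rbm25 in replicate 1 and 10 of the 18 in replicate 2 were called on both strands. The same share over all called bins of each list was not computed, so these 2 bin counts stand without a background.

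Tags on the strands were close to equal where both were called in 1-bin peaks. In each list 4 Rbm25 bins allowed this comparison. The antisense share of the tags of a bin ran from an even split to 61.0% in replicate 1, with a median of 52.9%, and from 46.4% to 55.8% in replicate 2, with a median of 50.7%. In other genes the median was 51.1% in each list, over 519 and 2373 bins, with quartiles of 48.3% and 54.5% in replicate 1 and of 48.9% and 53.7% in replicate 2. Rbm25 bins thus showed the near-equal strands seen across the lists. A bin enters this comparison if both strands were called, which removes bins with 1 strand under the lowest called tags.

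**Figure D3:**
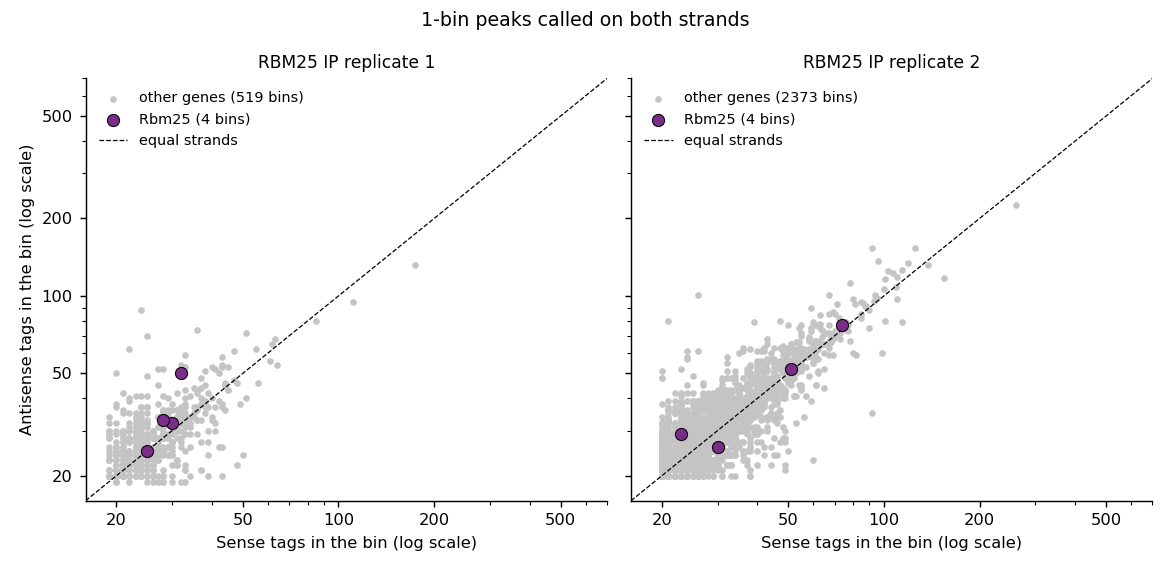
Antisense against sense tags (log axes) in 1-bin peaks called on both strands, replicate 1 on the left and replicate 2 on the right, with Rbm25 bins in purple, bins of other genes in grey and equal tags as a dashed line. The 4 Rbm25 bins of each list lie along the line among the other genes, and the highest one in replicate 2 has 74 sense and 77 antisense tags.

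Between replicates, tags of the 13 recurrent Rbm25 peaks had a median ratio of 1.42, replicate 2 over replicate 1. Replicate 2 was higher for 9 peaks, replicate 1 for 3, and 1 was equal. Over all 1645 recurrent peaks the median ratio was 1.24, with quartiles of 1.04 and 1.52, and replicate 2 was higher in 76.0%. The Rbm25 median lay between those quartiles. The ratio ran from 0.92 to 2.31 over its 5 sense peaks, the highest at 103311250. Over the 8 antisense peaks it ran from 0.336 to 1.58, the lowest at the 73-tag bin. That lowest ratio sets a mean over 2 bins in replicate 2 against 1 bin in replicate 1. A ratio as low as 0.336 was seen in 6 of the 1645 recurrent peaks, the Rbm25 peak included.

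**Figure D4:**
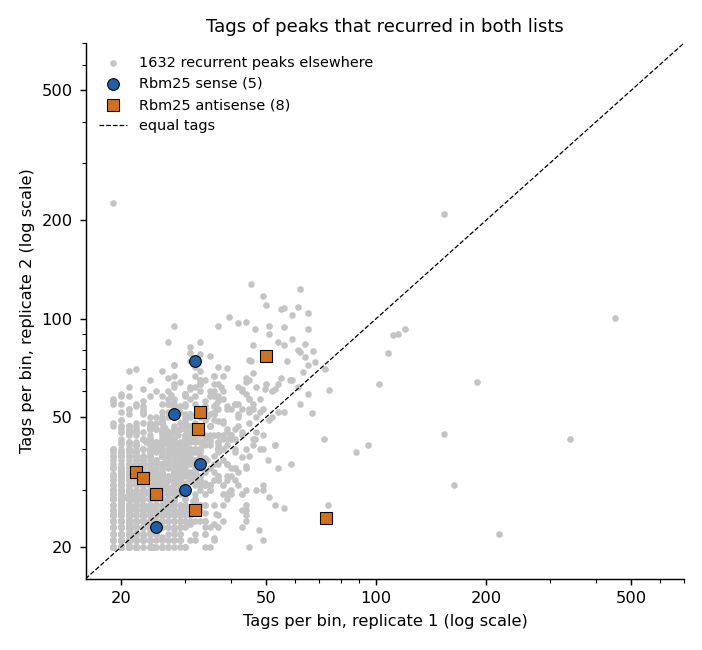
Tags per bin in replicate 2 against replicate 1 (log axes) for the 1645 recurrent peaks, with 5 sense (circles) and 8 antisense (squares) Rbm25 peaks over 1632 peaks of other loci in grey; the dashed line marks equal tags. Most Rbm25 points lie above the line, and the square far below it is the antisense peak with 73 tags in replicate 1 and 24.5 in replicate 2.

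Longer peaks occurred at Rbm25 and in other genes, Cald1 and Srrt among them. At Rbm25, 2 of 14 peaks of replicate 1 and 6 of 18 of replicate 2 covered more than 1 bin, beside 5.04% and 7.04% of all peaks. The 2 longer peaks of replicate 1 were antisense, and those of replicate 2 were 3 sense and 3 antisense peaks. Tags at Rbm25 ranged from 21 to 73 in replicate 1, with a median of 31.0, and from 20 to 77 in replicate 2, with a median of 31.3, above the list medians of 24 and 26. Rbm25 held 0.616% of the summed tags of replicate 1 and 0.354% of those of replicate 2.

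By number of peaks, Rbm25 stood at rank 14 of 922 genes in replicate 1, level with 3 others, and at rank 46 of 1819 in replicate 2, level with 10 others. Its 8 antisense peaks gave rank 8 in replicate 1 and rank 63 in replicate 2. By its tallest peak it was at rank 23 and rank 69. Over both lists together its 32 peaks gave rank 26 of 1914 genes, and by tags summed over bins it was at rank 17. Among the 34 genes with at least 10 peaks in replicate 1, the share of those peaks that recurred had a median of 71.1% and ran from 0 to 100%. Rbm25 was at rank 6. Peak number can follow RNA abundance and gene length, whose part in this order was not tested.

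The genes most like Rbm25 were found by the sum of absolute differences in 4 numbers, sense and antisense peaks in each of the 2 IP samples. Cald1, the gene of the actin regulator caldesmon, and LOC120097382 differed by 3 peaks in all, and Srcap, a chromatin remodeller gene, and Srrt, whose product works with the cap-binding complex of the nucleus, by 4. The actin cross-linker gene Actn1 differed by 5. These genes had like numbers of peaks with different recurrence. All 14 replicate 1 peaks of Srcap recurred and 16 of 17 in Srrt, against 9 of 13 in Cald1, 6 of 14 in Actn1 and 5 of 12 in LOC120097382. Boundary sense peaks of replicate 1 numbered 6 of 6 in Rbm25 and in Srcap, 8 of 9 in Srrt, 7 of 7 in Actn1, 1 of 6 in Cald1 and 0 of 6 in LOC120097382. The peaks of Cald1 were spread over 167600 nt in replicate 1, those of Rbm25 over 13450 nt and those of Srrt over 7150 nt.

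**Figure D5:**
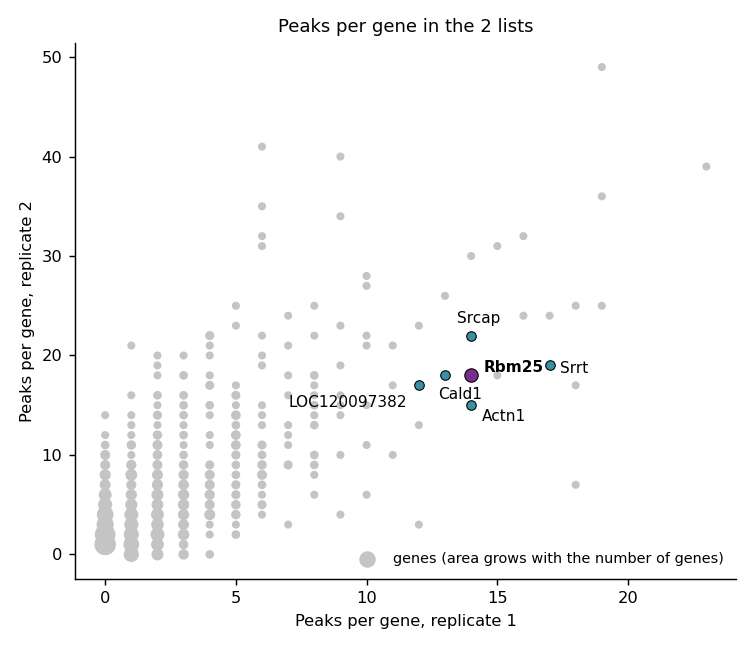
Peaks per gene in replicate 2 against replicate 1 for all 1914 genes with a peak (grey, larger where more genes coincide), with Rbm25 in purple and the 5 genes most like it by sense and antisense peak numbers in teal. Rbm25, at 14 and 18 peaks, lies in the sparse upper part of the cloud, with Srrt at 17 and 19 and Cald1 at 13 and 18.

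Partners of RBM25 were looked up in lists, Rbm25 itself left out. Over 23154 protein-coding symbols, 3.31% had a peak in both lists and 2.62% a recurrent peak. Of 11 genes of U1 snRNP and LUC7-like proteins, 3 had a recurrent peak: Luc7l2 with 11 and 17 peaks, Luc7l3 with 8 and 9, and Snrnp70, the gene of the U1-70K protein, with 1 and 16. The median over this list was 0 peaks in each replicate. Of 22 genes of SR-related speckle proteins, 14 had a recurrent peak, with medians of 1.5 and 6 peaks. They were Srrm2, with 17 and 24 peaks, Ddx46, with 10 and 15, Pnn, with 10 and 11, Acin1, Arglu1, Son, Srek1, Zranb2, Scaf1, Rsrc2, Ddx23, Thrap3, Prpf38b and Bclaf1. A sense peak recurred in 11 of these 14. Scaf1 and Thrap3 had antisense peaks alone in replicate 1, and Bclaf1 in both lists.

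Of 13 SR protein genes, 6 had a recurrent peak, namely Srsf1, Srsf4, Srsf5, Srsf6, Srsf7 and Srsf11, and Tra2b had peaks in both lists at different positions. Srsf11 had the most in replicate 1, with 7 peaks there and 9 in replicate 2, below the 14 and 18 of Rbm25. The other genes of PWI-domain proteins carried little: Srrm1, the gene of SRm160, had 0 and 2 peaks, and Prpf3 none. Among 24 other genes named for RNA-binding motifs, 5 had a recurrent peak: Rbm39, with 6 and 9 peaks, Rbm28, with 5 and 7, Rbm5, with 4 and 7, and Rbm3 and Rbm8a, with 1 and 4 each. A sense peak recurred in 4 of these 5, and the single replicate 1 peak of Rbm3 was antisense. Rbm10 had 1 peak in each list without overlap. Rbm25 thus had more peaks than any of these 24 in each list.

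Of the known RBM25 targets, Bin1, the gene of a membrane-shaping protein, had 1 peak in replicate 1 and 3 in replicate 2 with no overlap. Bcl2l1 had 0 and 2.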

How the data were processed

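HISAT2 and the build mRatBN7.2 are named in the submitters' processing notes. Which program called the peaks, with which filters, and whether it used the inputs is not given in the sources used here. Tags as deposited are a signal, by their values whole in 1-bin peaks and a mean over 50-nt bins in longer ones, with no scaling for depth. The deposited p-value of each peak is the authors'. Each list is 1 IP sample by its name.

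Peaks were called recurrent when they shared at least 1 bin on the same strand. Exon and intron fractions, antisense class and gene are those of the deposited annotation; a fraction is a share of the 50-nt bins. Coordinates are printed as deposited, where a 1-bin peak has a length of 51. Likeness, gene lists and shares of all peaks were computed with pandas 2.3.3, numpy 2.4.6 and scipy 1.17.1 in Python 3.11.15, and plotted with matplotlib 3.10.9; Wilson intervals are at 95%. The gene lists, and the 5 genes named by likeness (ties by symbol), follow rules written with earlier results of these data known, as does the choice of Rbm25. The rule for names covers all Rbm25 peaks, the 5 most like genes, list members with a peak in both lists and genes within 1000000 nt. Neighbouring genes and symbols came from a RefSeq name table of another assembly, GRCr8, used for names and order alone; it held 23 of the 24 RNA-binding motif genes and every symbol of the other lists. Bin sequences and motifs were not analysed here. The overlap procedure was tested on simulated data. Depth is unknown, so no depth correction was made. Alternatives covered the threshold, peak length, membership, overlap rule, unit, scale and leaving out each replicate; shortening the replicate 2 list was chosen after seeing the data. Genes that the rule names but that are absent from the text are not reported here.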

Additional observations from a re-analysis of the deposited data

How the results depend on the processing

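Of 44 alternative settings over 7 results, 36 stayed within the error of the value given or within 1.5 times of the count or rank. That error is the wide Wilson interval for shares and the standard deviation over peaks for the tag ratio. The settings that took every peak inside the Rbm25 span could not move a result, since no peak of another gene lay there. With the replicate 2 list shortened to 2747 peaks, a setting chosen after seeing the data, the mean number of Rbm25 peaks per list fell from 16 to 10.0 and recurrence from 92.9% to 35.7%. Counting adjoining bins as overlap raised recurrence to 100%. The rank over both lists, 26, became 45 with 1-bin peaks alone and 17 by summed tags; the cause was not tested. Leaving out each replicate in turn gave 14 to 18 peaks, an antisense share of 44.4% to 57.1%, a boundary share of sense peaks of 70.0% to 100%, 41.7% to 55.6% of bins on both strands, and a rank of 14 to 46. No paired analysis was possible because no result comes from a test. With 14 and 18 peaks, intervals of shares span over 30 percentage points, and unscaled tags limit any statement on a change between replicates.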
